A study of Thermothelomyces thermophilus ATCC 42464 with 6 samples.

Results

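In Myceliophthora thermophila (Thermothelomyces thermophilus), a thermophilic filamentous fungus that grows on plant biomass, 107 of the 2228 genes in a transcript table stood at least 4-fold lower in a strain lacking the transcription factor gene Mtclr-2 than in the wild type. They were chosen by their measured levels: a wild-type mean of at least 5 FPKM (sequenced fragments scaled to transcript length and to library depth) and a wild-type mean at least 4 times the deletion mean. The rule also leaves out 5 loci by name, MYCTH_86753, MYCTH_111372, MYCTH_115968, MYCTH_112089 and MYCTH_92668, which met both thresholds with ratios of 4.78 to 72.6. The direction and the minimum size of every difference below were therefore set by the choice, and the values are a description with no test.

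The 6 libraries are 3 of the wild type and 3 of the MtClr-2 deletion strain of the same species. Mycelium of both strains was first grown in glucose medium, washed, and held for 48 h in liquid medium with 2% Avicel, a purified crystalline cellulose. The labels say neither whether the deletion strain is 1 clone nor whether its 3 libraries, or those of the wild type, were grown as independent cultures. The spread between libraries may therefore be technical. No locus is named Mtclr-2 in the tables used, so the deleted gene itself was not analysed here.

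MtCLR-2 belongs to a family of fungal regulators with a zinc cluster that binds DNA. Its counterpart in Neurospora crassa, CLR-2, is known as an activator that the fungus needs to switch on cellulase genes when cellulose is the carbon source. In that fungus, CLR-2 acts downstream of a related regulator, CLR-1, which responds to cellobiose, the disaccharide released from cellulose. By its title, the series asks how MtCLR-2 regulates cellulase production, and it names the genes Mtegl2 and Mtbgl1. None of the 107 members carries a gene symbol in the RefSeq gene table (0 of 107), and that table gives no product names, so they are called by locus tag and no function is assigned to them.

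The table is itself a selected set. Each of its 2228 genes had strain means at least 2.00-fold apart, with 1323 genes lower and 905 higher after deletion. This balance depends on the scaling: among genes called by limma, 1279 were lower and 827 higher on FPKM as deposited, but 702 lower and 848 higher with median-of-ratios factors, which take the median gene as unchanged. As deposited, no gene of this table is unchanged, so those factors rest on an assumption that this selected set does not meet. The comparison genes and neighbours below are therefore named lower or higher on FPKM as deposited. Apart from the 107 members and the 5 loci left out by name, 1211 genes were lower. Library depth, estimated from the low FPKM values, came to roughly 13.9 to 16.6 M fragments for wild-type libraries and 12.99 to 16.8 M for deletion libraries. FPKM is relative to each library's total, and in RNA from whole mycelium fewer cells that use a gene and less RNA per cell cannot be told apart.

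The members spanned more than 3 orders of magnitude in level. Wild-type means ran from 5.09 to 10696 FPKM with a median of 37.2, and deletion means from 0.0943 to 2502 FPKM with a median of 5.41. The deletion strain kept a median of 19.1% of the wild-type level at these genes. Among the 1042 other lower genes that also reached 5 FPKM in the wild type, the median kept was 42.3%, at a similar median wild-type level of 40.2 FPKM. These other genes are confined to ratios from 2.00 to under 4 by the table and the rule, so the gap between the 2 medians was set by the choice. Of the members, 26 lay at 5 to 10 FPKM in the wild type, 49 at 10 to 100 FPKM, 28 at 100 to 1000 FPKM and 4 above 1000 FPKM.

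**Figure D1:**
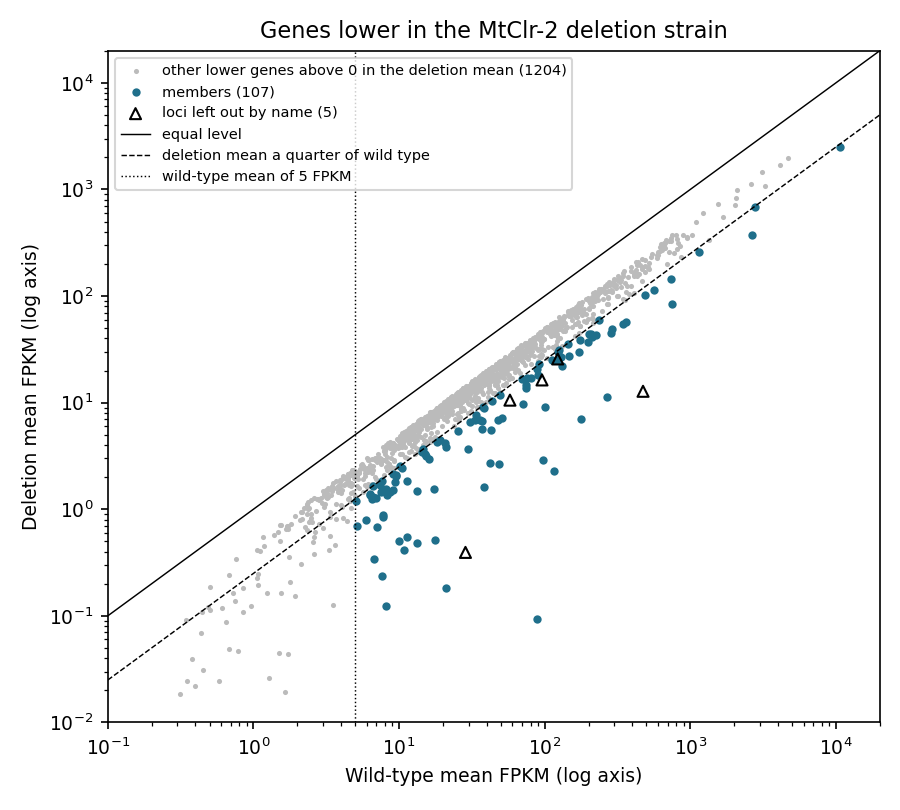
Mean FPKM in the deletion strain against mean FPKM in the wild type, both on log axes, for genes lower in the deletion strain. The 107 members (filled) lie on or below the dashed line of a 4-fold difference and right of 5 FPKM, most of them close to that line and 16 of them at 16-fold or more; triangles mark the 5 loci left out by name.

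Most members sat near the lower bound of the rule. The ratio of the wild-type mean to the deletion mean was 4 to under 5 at 47 members, 5 to under 8 at 35, 8 to under 16 at 9, and 16 or more at 16. The median ratio was 5.23 and the third quartile 7.40. Large ratios occurred across wild-type levels up to 269 FPKM: 3 of the 26 members at 5 to 10 FPKM, 10 of the 49 at 10 to 100 FPKM and 3 of the 28 at 100 to 1000 FPKM were at 16-fold or more. None of the 4 members above 1000 FPKM reached 16-fold, the highest of them being at 7.002-fold. Across the 107 members, log2 level in the wild type and log2 ratio showed little relation (Pearson r = -0.08, Spearman rho = -0.08). Both measures share the wild-type mean and the rule bounds both, so these are descriptions only.

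On the log2(FPKM + 1) scale, which understates changes at low levels, the median difference over the members was -2.18 (deletion minus wild type), against -1.15 over the other lower genes tested. The rule largely set this gap. limma called 100% of the 2106 genes tested across the table at an adjusted p under 0.05, so the call of 107 of 107 members says nothing about them. At 107 of 107 members the 3 wild-type values lay above the 3 deletion values. Over the table the wild-type values lay above in this way at 59.1% of genes (1316 of 2228). Only 1323 genes of the table were lower at all, so this separation is not particular to the members. The rule had also already used that contrast. With median-of-ratios factors, the median over all tested genes moves from -0.99 to -0.05, that of the other lower genes from -1.15 to -0.21 and that of the members from -2.18 to -1.25. The 107 members stayed lower on that scale, but 23 of them would then meet the rule. The factors assume an unchanged median gene, which this selected table lacks as deposited, so 23 is not a corrected member count.

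In the wild type, 4 of the 25 highest genes of the table were members, and they made up 65.1% ± 0.24 of the members' summed FPKM (SD, n = 3). MYCTH_2310279 was the highest gene of the table in the wild type, at 10668, 10687 and 10734 FPKM in replicates 1 to 3. In the deletion libraries it stood at 2518, 2557 and 2432 FPKM, a 4.27-fold lower level that was still the 6th highest of the table. Its 3 wild-type values lay within 1% of each other.

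MYCTH_2308313 read 2699.7, 2794 and 2827 FPKM in the wild type and 684, 679 and 679 FPKM in the deletion strain, a ratio of 4.07. MYCTH_2309458 had nearly the same wild-type level, at 2612, 2662 and 2643 FPKM, but a lower residue of 370.3, 388 and 372 FPKM. Its ratio was 7.002, so these 2 genes, 8th and 9th in the wild type, ranked 47th and 88th in the deletion strain. MYCTH_110651 was at 1135, 1162 and 1142 FPKM against 259, 258 and 256 FPKM, 4.45-fold. The rule set a gap of at least 4-fold at each of these genes, and the spread between their libraries may be technical.

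Below 1000 FPKM, MYCTH_2120499 had the largest ratio among the 12 highest members. It read 757, 752 and 728 FPKM in the wild type and 83.7, 85.9 and 80.3 FPKM in the deletion strain, 8.95-fold, and went from 34th to 412th in the table. MYCTH_110931 started from the same level (736 ± 18.5 FPKM, SD, n = 3) and kept 143 ± 3.24 FPKM, so its ratio was 5.14. MYCTH_2295570 and MYCTH_2307998 were at 567 ± 14.6 and 489 ± 6.11 FPKM in the wild type, with ratios of 4.93 and 4.73. The last 4 of the 12, MYCTH_2297133, MYCTH_2298375, MYCTH_55576 and MYCTH_2305420, lay between 284.8 and 359.9 FPKM with ratios of 6.01 to 6.39. MYCTH_2305420 was the least even of them in the deletion strain, at 43.2, 36.6 and 53.9 FPKM.

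**Figure D2:**
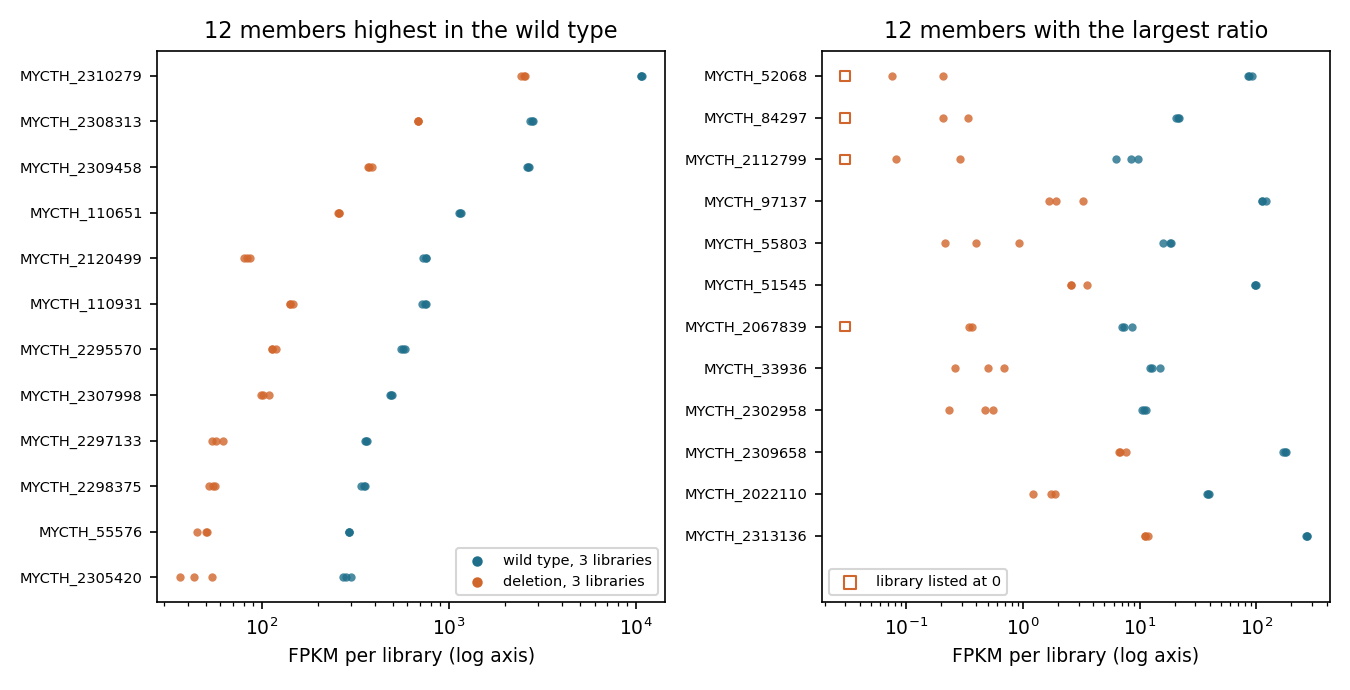
FPKM in each of the 6 libraries (log axis) for the 12 members highest in the wild type and the 12 with the largest ratio of means; open squares at the left edge stand for deletion libraries listed at 0. The strains are apart at all 24 rows, in a contrast that the rule had used. Over the table the wild-type values lay above in this way at 1316 of 2228 genes, and only 1323 were lower at all. The deletion values spread most where they are under 1 FPKM.

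Summed over the 107 members, the level was 26401, 26537 and 26577 FPKM in wild-type replicates 1 to 3 and 5407, 5451 and 5356 FPKM in the deletion libraries. The strain sums differed 4.90-fold, and 5.45-fold without MYCTH_2310279, which alone held 40.4% ± 0.072 of the wild-type sum and 46.3% ± 0.79 of the deletion sum. The members' part of all FPKM listed went from 13.1% ± 0.046 to 2.73% ± 0.051 (SD, n = 3), a difference of 10.33 percentage points. That difference was 6.74 points with MYCTH_2310279 taken out of the members and the total. No library of a strain stood apart: the median log2 deviation of the members from their strain mean was -0.012 to 0.027.

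**Figure D3:**
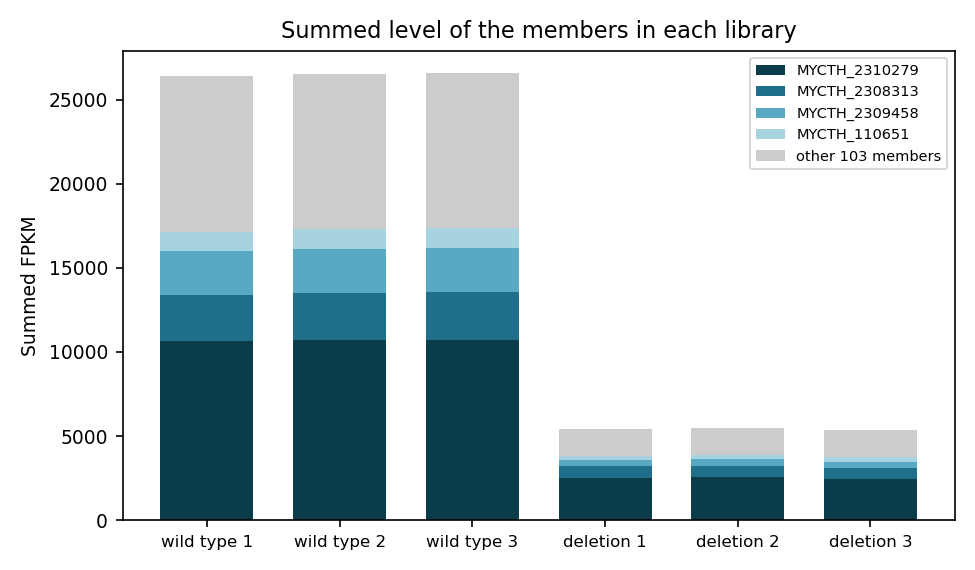
Summed FPKM of the members in each library, with the 4 highest members as separate segments and the remaining 103 in grey. The 3 wild-type bars reach 26401 to 26577 FPKM and the 3 deletion bars 5356 to 5451 FPKM, and MYCTH_2310279 is the largest single segment in each.

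The largest ratio was at MYCTH_52068. It read 86.7, 92.1 and 85.2 FPKM in the wild type, and 0, 0.075 and 0.208 FPKM in the deletion strain. About 5 fragments in all, by estimate, lie behind the deletion values. The ratio of means was 933. Fragments pooled over the libraries of each strain gave a counting interval of 493 to 3543 (95%, exact binomial on estimated fragments). MYCTH_84297 followed, at 21.2, 21.6 and 20.4 FPKM against 0, 0.338 and 0.208 FPKM, 115.6-fold with an interval of 69.5 to 250.4. MYCTH_2112799 was lower in the wild type, at 6.31, 8.52 and 9.69 FPKM, and stood at 0.082, 0 and 0.290 FPKM in the deletion strain. Its 65.9-fold ratio has an interval of 33.2 to 172, from an estimated 7 fragments. These intervals take in counting error alone. All counting intervals given here rest on pooled fragments, so they are not centred on the ratios of means. They make no allowance for picking genes by the size of the ratio. Annotated lengths include introns, so at the estimated depths the fragment numbers are upper estimates and the true intervals are wider at genes with introns.

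A group of members with large ratios stayed above 1 FPKM in every deletion library. MYCTH_97137 was at 112.6, 112.9 and 120.6 FPKM in the wild type and 3.30, 1.92 and 1.66 FPKM in the deletion strain, 50.3-fold. MYCTH_51545 was at 96.6, 99.1 and 98.1 FPKM against 3.51, 2.57 and 2.60 FPKM, 33.8-fold. MYCTH_2313136 had the highest wild-type level of all members at 16-fold or more, at 270.1, 270.3 and 268 FPKM. Its deletion values were 11.04, 11.2 and 11.7 FPKM, a ratio of 23.8 with a counting interval of 22.6 to 25.1, and its place in the table went from 150th to 1239th. MYCTH_2309658 was close to it in ratio, at 177.9, 181.2 and 170.8 FPKM against 6.71, 7.70 and 6.73 FPKM, 25.1-fold (interval 23.7 to 26.7). MYCTH_2022110 was at 39.2, 38.0 and 38.5 FPKM against 1.87, 1.74 and 1.21 FPKM, 24.0-fold. The counting intervals of these last 3 ratios overlap, and their order was not tested.

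The other 4 of the 12 largest ratios were at genes of 7.67 to 17.6 FPKM in the wild type. MYCTH_55803 was at 17.6 ± 1.48 against 0.513 ± 0.368 FPKM (34.3-fold) and MYCTH_33936 at 13.4 ± 1.47 against 0.486 ± 0.217 FPKM (27.5-fold). MYCTH_2067839, at 0.363, 0 and 0.343 FPKM in the deletion strain, had a ratio of 32.6 with a counting interval of 17.1 to 62.8. MYCTH_2302958 was at 10.9 ± 0.50 against 0.419 ± 0.165 FPKM (25.9-fold). Their deletion libraries varied by 39.4% to 86.7% of the mean (coefficient of variation), and their intervals overlap one another. In all, 15 members were under 1 FPKM in the deletion strain. At 4 members, MYCTH_52068, MYCTH_84297, MYCTH_2112799 and MYCTH_2067839, at least 1 deletion library was listed at 0, and no member was at 0 in all 3.

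Between these and the bulk of the members lay a thin middle range, from which a few genes are given after their values were seen. MYCTH_46583 was at 48.8 ± 2.52 FPKM against 2.63 ± 0.424 FPKM (18.5-fold), and MYCTH_108407 at 41.9 ± 2.45 against 2.73 ± 0.432 FPKM (15.3-fold). MYCTH_41714 was at 100.2 ± 1.71 against 9.04 ± 0.890 FPKM (11.1-fold). MYCTH_2303256 had the largest spread of any member in the wild type, at 7.22, 8.58 and 4.34 FPKM, a coefficient of variation of 32.3%. Its ratio of 19.6 shrinks to 7.37 when its lowest wild-type library is set against its highest deletion library.

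**Figure D4:**
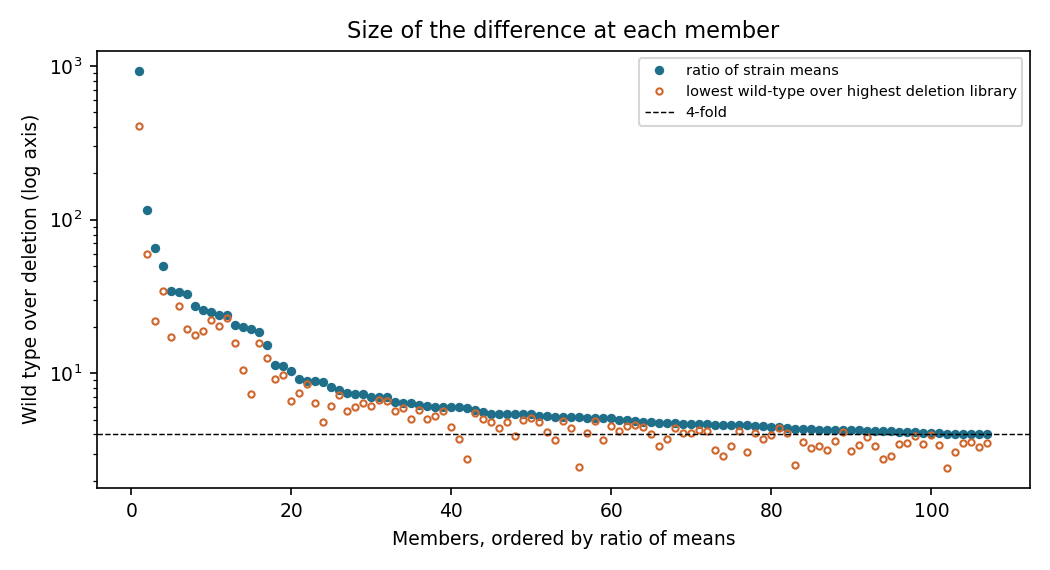
Ratio of wild-type to deletion level (log axis) for the 107 members in order of the ratio of strain means (filled), with the lowest wild-type library over the highest deletion library (open). The curve drops from 933 to 8 within the first 25 members and then flattens towards 4, and 38 open points lie under the dashed 4-fold line.

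Members differed in how firmly they exceeded 4-fold, and the relative spread between libraries was larger at low levels. Set against each other in the least favourable way, the lowest wild-type library was still at least 4 times the highest deletion library at 69 members, and under 4 times at 38. The smallest such value was 2.42, at MYCTH_2042961. Members with a ratio of means near 4 could fall short at high levels too, such as MYCTH_2308313 with 3.95 at 2774 FPKM in the wild type. The median coefficient of variation between libraries was 4.89% for the wild type against 13.0% for the deletion strain. For members at 5 to 10 FPKM in the wild type it was 11.1% and 31.4%, and for members at 100 to 1000 FPKM it was 2.58% and 6.93%. Other lower genes that reached 5 FPKM in the wild type had medians of 4.46% and 6.56%, at deletion levels that were about 3 times as high (median 16.6 FPKM).

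Values at the edge of the rule ran on without a gap. Just inside the ratio threshold were MYCTH_2138690, MYCTH_2305718 and MYCTH_38939, with ratios of 4.01, 4.01 and 4.03. Just outside were MYCTH_105575, MYCTH_2310610 and MYCTH_2297552, with ratios of 3.99, 3.98 and 3.93. MYCTH_2310610 stood at 1337 ± 60.5 FPKM in the wild type and 336 ± 15.1 FPKM in the deletion strain, a higher level than all but 3 members. At the level threshold, MYCTH_2310287, MYCTH_2310784 and MYCTH_94532 were inside with wild-type means of 5.09, 5.17 and 5.89 FPKM. MYCTH_2113991, MYCTH_2305389 and MYCTH_2306113 were outside with 4.65, 4.40 and 4.09 FPKM, each also at least 4-fold lower in the deletion strain. Leaving out 1 library at a time kept 83 members in every case, and the 24 that dropped out at least once had ratios of at most 4.64.

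Position in the genome was not used by the rule. In the order of protein-coding genes given by RefSeq for assembly ASM22609v1, 13 of the 107 members stood next to another member, in 1 run of 3 and 5 pairs. The same 13 were found when 1 gene was allowed in between. No matching count was made for other sets of genes, so 13 cannot be read as many or few. The sources used here do not give the build behind the FPKM values, so no coordinates are printed. Of the 214 positions directly beside a member, 54 (25.2%) held a gene that was also lower in the deletion strain, 11 (5.14%) a higher gene and 149 (69.6%) a gene not in the table. Each member has a position on either side, so a gene beside 2 members is counted at both, and neighbouring members count for each other. Beside the other 1211 lower genes, 22.2% of positions held a lower gene and 6.07% a higher one. Beside the 905 higher genes, the percentages were 8.79% and 22.2%. Of all 9097 protein-coding genes, 14.5% were listed as lower and 9.95% as higher. Members and other lower genes thus had neighbours of much the same make-up, and no test of the difference was made.

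**Figure D5:**
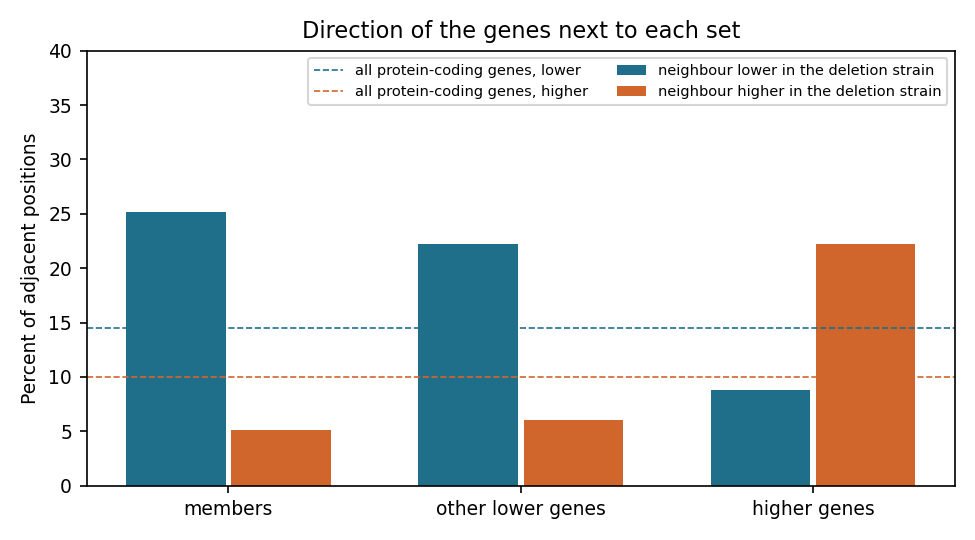
Percent of directly adjacent positions in the order of protein-coding genes that held a gene lower or higher in the deletion strain, for the members, the other lower genes and the higher genes; dashed lines give the percent of all 9097 protein-coding genes in each direction. Members and other lower genes have 25.2% and 22.2% lower neighbours, both above the 14.5% over all genes, while the higher genes have 8.79%.

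The pair with the highest level was MYCTH_2310279, described above, and MYCTH_2310277, which differed more than 1000-fold in level. MYCTH_2310277 was at 9.20, 8.62 and 9.33 FPKM in the wild type and 1.46, 1.87 and 3.13 FPKM in the deletion strain. The ratios of the 2 neighbours were 4.27 and 4.20, near the lower bound of the rule, where 47 members had ratios of 4 to under 5. The ratio of MYCTH_2310277 has a counting interval of 3.54 to 5.16, and the likeness was not tested. MYCTH_2297133 (359.9 ± 4.73 against 57.4 ± 3.96 FPKM) and MYCTH_2297132 (88.2 ± 3.52 against 20.7 ± 6.37 FPKM) abut or overlap by their annotated ends. Reads at the border of such genes may be counted for either, and the sources used here give no counting or strand settings.

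MYCTH_2300067 and MYCTH_2300064 were at 172 ± 4.91 and 75.01 ± 2.30 FPKM in the wild type, with ratios of 5.79 and 5.47. MYCTH_2309587 and MYCTH_103090 were at 36.9 ± 2.74 and 18.97 ± 1.93 FPKM, with ratios of 6.56 and 4.28. Of the 5 pairs, MYCTH_2139328 and MYCTH_2305501 had the largest ratios. MYCTH_2139328 was at 8.24, 7.15 and 7.72 FPKM against 0.663, 0.964 and 0.887 FPKM (9.19-fold). MYCTH_2305501 was at 18.7, 15.6 and 17.8 FPKM against 1.52, 1.70 and 1.38 FPKM (11.3-fold). At both genes of this pair the lowest wild-type library was over 7 times the highest deletion library (7.42 and 9.14).

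The run of 3 members, MYCTH_2297117, MYCTH_2042961 and MYCTH_2297118, was low in level, at 8.21 ± 1.47, 6.65 ± 0.71 and 20.6 ± 1.81 FPKM in the wild type. Their ratios were 5.98, 4.06 and 4.96. MYCTH_2297117 read 0.622, 2.40 and 1.10 FPKM and MYCTH_2042961 read 1.73, 0.740 and 2.45 FPKM in the deletion strain. At these 2 genes the lowest wild-type library was under 3 times the highest deletion library (2.78 and 2.42), although the strains did not overlap.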

How the data were processed

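The deposited table holds FPKM, computed by the authors, in 1 column per library, with replicates not pooled. The submitters' processing notes name DESeq2, RSEM, HISAT2, fastp (0.18.0) and StringTie (1.3.1), with no order or role. The sources used here do not give settings, genome build or the rule that selected the 2228 genes. Groups and replicate numbers came from sample titles, and columns were matched by library name. All 2228 genes matched RefSeq (ASM22609v1), 2226 by locus tag and 2 by symbol.

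The members, thresholds and lists were chosen with earlier results of these data known. Strain means, SD and ratios used FPKM as deposited. limma 3.58.1 (R 4.3.3) was fitted on log2(FPKM + 1) with a variance trend, two-sided, over 2106 genes (mean over libraries 1 FPKM or more), with Benjamini-Hochberg adjustment and a threshold of 0.05. It was tested on simulated data, and its calls serve only as background.

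Named genes were the 12 highest members, the 12 with the largest ratio, the 3 genes on each side of each threshold, the run of 3 and the 5 pairs of neighbouring members; exceptions are stated. Depth was estimated from low values: FPKM times annotated length in kilobases should be a whole multiple of 1 fragment per M, and the step that most values fit to within 1% was sought from 10 to 40 M, with the lower bound set after seeing the data. On the best step lay 21 to 35 of 79 to 94 low values per wild-type library and 10 to 13 of 43 to 53 per deletion library, so fragment numbers are rough. Ratios of low values between libraries of 1 strain, which need no length, gave relative depths of 0.778 to 1.190, against 0.773 to 1.194 from the estimates. They check depth only between libraries of a strain, so an error in depth shared by those libraries would not show. No count test was run, since whole reads were not recovered for most values. Gene order used the 9097 protein-coding genes. Other software was scipy 1.17.1, matplotlib 3.10.9, pandas 2.3.3 and numpy 2.4.6 under Python 3.11.15. Lists from protein patterns and promoter motifs were not made, since no sequences were used here.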

Additional observations from a re-analysis of the deposited data

How the results depend on the processing

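The rule kept 107 genes as deposited. It kept 23 with median-of-ratios factors, whose assumption of an unchanged median gene this selected table does not meet. By construction these factors lower both the ratios, about 2-fold, and the wild-type levels. MYCTH_2303256 and MYCTH_48804 stayed above 4-fold there and were lost through the level threshold. It kept 70 when 1 FPKM was added to both means, which lowers the ratio of genes with low levels by construction. It kept 69 when the lowest wild-type library had to be 4 times the highest deletion library, an alternative chosen after seeing the data. Equal library totals gave 99 genes, all members. Medians of the libraries gave 109, of which 99 were members. Leaving out each library gave 98 to 114 genes, of which 94 to 104 were members. Without the 6 members that abut or overlap a neighbour by RefSeq ends, also chosen after seeing the data, 101 remained. With the replicate block, that is a 4-fold difference in each of the 3 same-numbered pairs, 72 members stayed; in limma the block left 2106 calls and a median log2 change of -2.18. The sample titles give replicate numbers and state no pairing. Deviations correlated at -0.005 to 0.082 between same-numbered libraries and at -0.064 to 0.040 between other-numbered ones. So few values cannot settle whether same-numbered libraries were handled together.

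The median log2 change of the members was -2.18, -2.36 with a pseudocount of 0.1, -1.25 with median-of-ratios factors, -2.14 with equal totals, and -2.20 to -2.16 without each library. The share difference of 10.33 percentage points was 7.70 without the 10 most abundant genes, 6.74 without MYCTH_2310279 (chosen after seeing the data), and 10.30 to 10.35 without each library. limma called 1550 of the 2122 genes tested with median-of-ratios factors. Under the other alternatives it called 1716 to 2221, which were all or nearly all genes tested in each. The 1716 were of 1716 tested at a mean of at least 5 FPKM, and the 2221 of 2228 without a filter. The 41 named members gave 410 values under alternatives, and 410 kept direction and side of the threshold, an outcome the selection largely set. Depth limits the 15 members under 1 FPKM in the deletion strain. Alternatives for promoter motifs and signal peptides were not run, since no sequences were used here.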

Other observations

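Chosen after their values were seen, the 11 members with a neighbour of the opposite direction included some steep contrasts between adjacent genes. MYCTH_2305759, a member (9.35 against 1.81 FPKM), stood between MYCTH_83041, which went the other way from 78.3 ± 2.91 to 559 ± 23.3 FPKM (SD, n = 3), and MYCTH_2305757, which was lower (28.1 ± 1.89 against 13.8 ± 0.45 FPKM). Beside MYCTH_2313117 (74.2 against 14.6 FPKM), MYCTH_84377 went from 0.836 ± 0.073 FPKM in wild-type to 13.4 ± 1.23 FPKM in deletion libraries. Beside MYCTH_97365 (132 against 21.9 FPKM), MYCTH_39133 was at 5.35 ± 1.09 and 41.3 ± 1.03 FPKM. MYCTH_2297133, a member at 359.9 FPKM in wild-type libraries, abuts or overlaps, by RefSeq ends, MYCTH_2297134, which was higher in the deletion strain (20.8 ± 0.89 against 42.9 ± 2.19 FPKM), and lies between it and the member MYCTH_2297132.

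Some genes outside the rule lay beside members and were also at least 4-fold lower. MYCTH_2309658, 25.1-fold lower, stood between MYCTH_2129548 (3.30 ± 0.35 against 0.417 ± 0.080 FPKM, 7.91-fold) and MYCTH_2309660 (1.05 ± 0.40 against 0.225 ± 0.099 FPKM, 4.69-fold), both of which the rule leaves out for their low wild-type level. MYCTH_80276, a member at 130.1 ± 2.54 against 26.8 ± 1.35 FPKM, is the 1 member that stands next to a locus left out by name, MYCTH_111372. These values are descriptions, and no test was made.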
